A study of Mus musculus with 24 samples.

Results

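The mitochondrial ribosomal protein genes were taken as every gene whose symbol begins with Mrpl or Mrps followed by a digit, with pseudogene symbols left out. The rule found 75 genes among the 14557 gene symbols measured in the epithelial fraction of mouse lung organoids, 48 named Mrpl for the large subunit and 27 named Mrps for the small subunit. Where a gene lists several transcripts, the most abundant, by its mean count in these 12 libraries, stands for it. The organoids were grown from 200000 EpCAM+ lung epithelial cells of wild-type female C57BL6 mice together with 200000 cells of CCL206, an established mouse lung fibroblast line, in Matrigel. Wells received 0 (control), 12000 or 30000 nylon 6,6 microfibers of 12 by 31 µm for 7 days, and the study asked how these fibers act on the organoids. Epithelial cells were then separated with anti-EpCAM beads, 1 library for each of 4 mice at each dose. All 3 groups shared the fibroblast line, and the same 4 mouse numbers occur at every dose; the mice's age was not given in the sources used here.

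Mitochondria keep their own ribosome, which translates the few messages encoded by the mitochondrial genome into subunits of the respiratory chain and the ATP synthase. Its ribosomal RNAs, mt-Rnr1 and mt-Rnr2, are transcribed inside the organelle, whereas all of its proteins are encoded by nuclear genes, made in the cytosol and imported. Part of the proteins have counterparts in bacterial ribosomes and the rest are found only in mitochondria. In human patients, recessive variants in several of these genes, among them MRPS16, MRPS22, MRPS34, MRPL3 and MRPL44, cause combined deficiencies of the respiratory chain complexes.

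Sequencing depth differed with dose. Control libraries held 21222034 to 28232472 transcript counts, libraries at 12000 fibers 20103389 to 31119155, and those at 30000 fibers 6767842 to 9234052. Over the representative transcripts, transcripts of the mitochondrial genome took 5.20 to 7.77% of control counts, 5.33 to 6.91% of the counts at 12000 fibers and 14.3 to 16.3% of those at 30000 fibers. Epithelial markers were expressed in every library, with Epcam itself at 185 to 262 CPM at 30000 fibers, 468 to 497 CPM at 12000 fibers and 604 to 743 CPM in controls. CPM are counts scaled to the library's total over the representatives, adjusted by the trimmed mean of M values (TMM). Fibroblast markers were also present: 19 of 21 listed had a transcript, and their summed level was 8709 to 13802 CPM in controls, 16022 to 17505 CPM at the lower dose and 15451 to 18536 CPM at the higher dose. All 17 fibroblast markers tested were called higher at both doses, with a median log2 change of 1.00 at 12000 fibers and 1.78 at 30000 fibers. Of 11 epithelial markers, 1 was higher and 9 were lower at 30000 fibers, and 3 were higher and 6 lower at 12000 fibers. Among all genes tested, 32.2% were called higher and 33.4% lower at 30000 fibers, and 18.7% and 19.3% at 12000 fibers. The summed level of the epithelial markers was 6751 to 7812 CPM in controls, 6931 to 7760 CPM at the lower dose and 3923 to 4626 CPM at the higher dose. In each group that sum lay below the sum of the fibroblast markers, a longer list. The purity of the fraction sorted by EpCAM was not tested. Several defining immune and endothelial genes were without a listed transcript (Ptprc, Cd3e, Adgre1, Tyrobp, Cdh5, Tek and Emcn), and the immune markers that were listed, Cd79a and Csf1r, summed to 3.92 to 9.38 CPM. Of the mesothelial markers, Wt1 and Upk3b were without a listed transcript, whereas Msln was at 386 to 603 CPM at 30000 fibers, 662 to 815 CPM at 12000 fibers and 987 to 1213 CPM in controls. The endothelial markers Pecam1, Kdr and Vwf had a listed transcript. Summed with Msln they came to 391 to 609 CPM at 30000 fibers, 666 to 820 CPM at 12000 fibers and 991 to 1213 CPM in controls. These samples are bulk fractions, in which fewer cells of a type and less RNA per cell cannot be told apart; the part of cell makeup and of depth in the results on the 75 genes was not tested.

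The 75 representatives lie on 17 chromosomes and measure 418 to 7300 bases, with a median of 1418. GENCODE annotates 68 of them as protein coding, 5 as retained introns (Mrpl4, Mrpl23, Mrpl28, Mrpl32 and Mrpl33), 1 as a target of nonsense-mediated decay (Mrps34) and 1 as a processed transcript (Mrps6). The strand setting of the authors' counting was not given in the sources used here. Exons of 22 representatives overlap a gene on the opposite strand and those of 5 overlap a gene on the same strand, so that reads of these pairs may not be told apart; the partners of some are named beside their values. Of the other members described, opposite-strand partners are Gm11574 for Mrpl10, Gm16755 for Mrpl12, Mtbp for Mrpl13, Gcfc2 for Mrpl19, Eme1 for Mrpl27, Wdfy1 for Mrpl44, Actl6a and Ndufb5 for Mrpl47, and Ict1os for Mrpl58. Among Mrps genes they are Gga3 and Mif4gd for Mrps7, Gm16279 for Mrps18b, B430218F22Rik for Mrps30 and Mapk8ip3 for Mrps34. Gm43809 overlaps Mrpl33 and Gm49711 overlaps Mrps6 on the same strand.

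In the unexposed epithelial fraction the 75 genes spanned a wide range of levels. Per kilobase of representative transcript, Mrpl52 stood highest at 53.5 ± 5.7 CPM per kb (SD, n = 4), followed by Mrpl24 at 44.1 ± 3.6, Mrps21 at 40.9 ± 5.2 and Mrpl42 at 37.1 ± 2.9 CPM per kb. Mrpl24 and Mrps21 lay within their spread of each other, as did Mrps21 and Mrpl42. The lowest levels were those of Mrpl23 at 0.703 ± 0.243, Mrpl48 at 2.26 ± 0.27, Mrpl47 at 2.34 ± 0.28 and Mrpl35 at 2.98 ± 0.11 CPM per kb; Mrpl48 and Mrpl47 did not differ beyond their spread. The representative of Mrpl23, whose protein lines the exit of the peptide tunnel, is a retained-intron transcript, so its level is not that of the coding message. The median over the 75 genes was 11.2 CPM per kb in controls, 11.4 at 12000 fibers and 21.5 at 30000 fibers. At 30000 fibers Mrpl52, Mrps21 and Mrpl42 led the order at 200.4, 135 and 101 CPM per kb, whereas Mrpl24 stood in place 11 at 53.9 CPM per kb.

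At 30000 fibers the mitochondrial ribosomal protein genes were predominantly higher than in controls. By edgeR's quasi-likelihood test with Benjamini-Hochberg adjustment over all 13759 genes tested and a threshold of 0.05, 66 of the 75 members were higher and 2 were lower, against a background of 32.2% of all genes called higher and 33.4% called lower. The split was 58 higher and 4 lower with library totals in place of TMM, and 44 higher and 8 lower once a trend of counts on transcript length had been taken out of each library. With that trend removed, 30.8% of all genes were called higher and 32.1% lower. The median log2 change of the members was 0.91, beside -0.03 over all genes tested; with the length trend removed it was 0.41. Library totals move the median of all genes by -0.22 on the log2 scale (to -0.25) and turn the split of all calls into 3237 higher and 6363 lower, against 4434 higher and 4592 lower with TMM. Members took 0.256 to 0.267% of the representative counts at 30000 fibers and 0.146 to 0.161% in controls, groups that did not overlap. Within the mice, the median member difference between the 30000-fiber and the control library was 0.78, 0.90, 0.87 and 0.99 for mice 1 to 4. For 63 members all 30000-fiber libraries stood above all control libraries and for 2 all stood below, against 28.7% and 29.4% of all genes. By name, 44 of 48 Mrpl genes were higher and 1 lower (median 0.92), and 22 of 27 Mrps genes were higher and 1 lower (median 0.87).

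**Figure D1:**
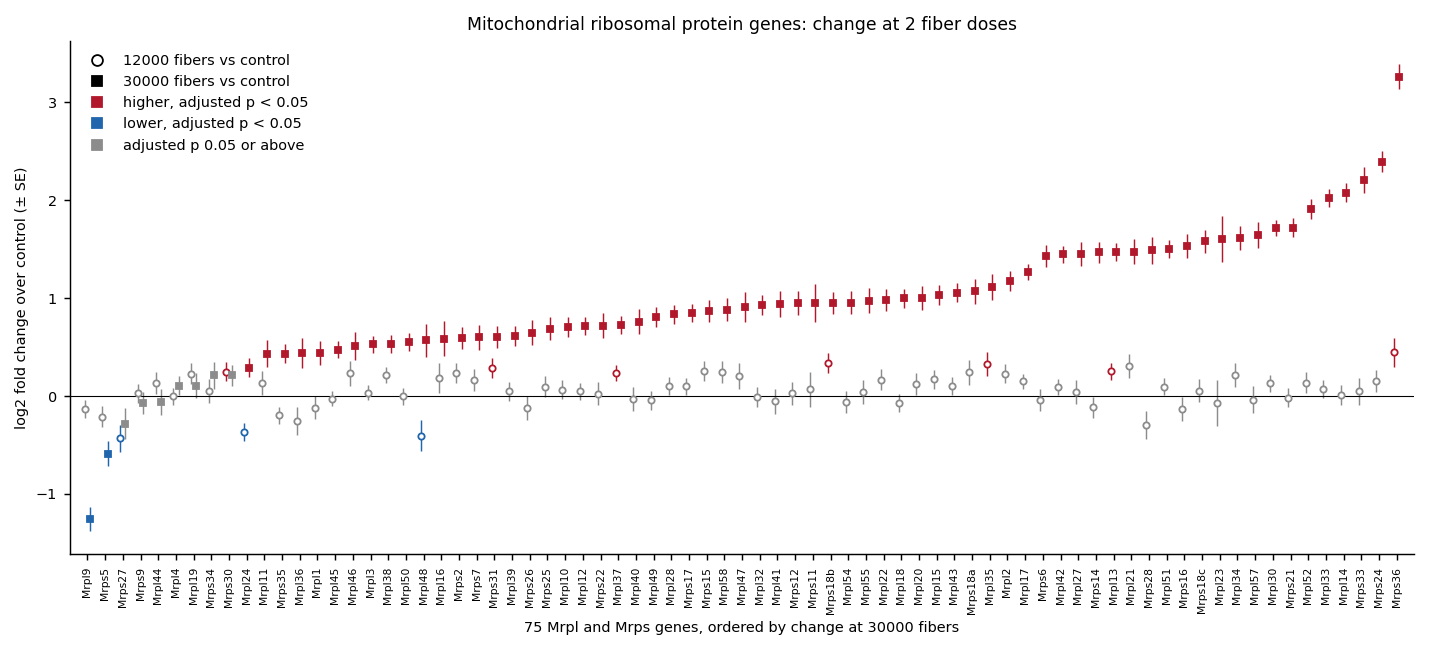
Log2 fold change over control of all 75 members, ordered by the change at 30000 fibers, for 12000 fibers (open circles) and 30000 fibers (filled squares); bars are standard errors from the edgeR fit and colours give the call. At 30000 fibers 66 members are higher and 2 lower with TMM scaling (44 and 8 with the length trend removed), whereas at 12000 fibers all circles lie between -0.43 and 0.45.

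The largest change was that of Mrps36, a short gene named for the small subunit whose product is known in mammals as an adaptor subunit (KGD4) of the oxoglutarate dehydrogenase complex of the citric acid cycle. Its representative lies on chromosome 13 (GRCm38, chr13:100735955-100744659, minus strand) and has 4 exons. Mrps36 was measured at 6.95, 5.64, 4.04 and 6.07 CPM in the control libraries of mice 1 to 4, at 7.62, 7.99, 6.83 and 8.71 CPM at 12000 fibers, and at 55.2, 55.4, 55.9 and 53.4 CPM at 30000 fibers. The 30000-fiber libraries stood far above all others, while those at 12000 fibers touched the control range. The log2 change at 30000 fibers was 3.26 ± 0.13 (SE, adjusted p = 2.39e-14), and over the alternatives it ranged between 1.96 with the length trend removed and 3.36.

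Mrps24, the mitochondrial counterpart of a bacterial protein at the entry of the mRNA channel, came next. Its levels were 10.5, 10.9, 14.1 and 10.3 CPM in controls, 12.5, 13.1, 13.0 and 12.2 CPM at 12000 fibers and 53.3, 66.7, 58.6 and 61.1 CPM at 30000 fibers. The groups at 0 and 12000 fibers overlapped and the 30000-fiber group stood apart (log2 change 2.40 ± 0.11, adjusted p = 2.64e-13), although the change was 1.24 with the counts of all transcripts of the gene summed and 1.58 with the length trend removed. Mrps33, a mitochondria-specific protein of the small subunit, averaged 49.1 ± 4.1 CPM at 30000 fibers and 10.6 ± 2.0 CPM in controls (SD, n = 4 each), a log2 change of 2.20 ± 0.13 (adjusted p = 1.68e-11). Mrps21, a short protein of the small subunit with a bacterial counterpart, averaged 65.8 ± 4.2 CPM at 30000 fibers and 20.0 ± 2.5 CPM in controls (log2 change 1.72 ± 0.10, adjusted p = 6.42e-12). That change became -0.08 (adjusted p = 0.467) once the length trend was removed; this transcript has 488 bases.

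In the large subunit the highest changes were those of Mrpl14, Mrpl33, Mrpl52 and Mrpl30. Mrpl14, which in human mitochondria binds the assembly factor MALSU1, was measured at 14.8, 13.4, 15.1 and 12.2 CPM in controls, 13.7, 13.6, 14.1 and 14.6 CPM at 12000 fibers and 55.6, 61.0, 54.2 and 63.5 CPM at 30000 fibers. The 30000-fiber libraries stood apart and the other groups overlapped; the log2 change was 2.08 ± 0.10 (adjusted p = 3.77e-13) and 0.66 with the length trend removed. Exons of Mrpl14 overlap those of Tmem63b on the opposite strand. Mrpl33 averaged 109 ± 13 CPM at 30000 fibers and 26.7 ± 2.4 CPM in controls, a log2 change of 2.03 ± 0.09 (adjusted p = 1.98e-13) that was 2.06 with the length trend removed and 2.56 for its highest protein-coding transcript. Mrpl52, a mitochondria-specific protein, averaged 83.8 ± 11 CPM at 30000 fibers and 22.4 ± 2.4 CPM in controls (log2 change 1.91 ± 0.10, adjusted p = 3.82e-12), and the change was -0.09 (adjusted p = 0.413) with the length trend removed. Mrpl30 averaged 75.8 ± 4.4 CPM at 30000 fibers and 23.1 ± 1.8 CPM in controls (log2 change 1.71 ± 0.08, adjusted p = 8.23e-13; 0.86 with the length trend removed).

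The members with well-described roles in translation mostly took part in the rise at smaller sizes. In the stalk that recruits translation factors, Mrpl12, which in human cells also binds the mitochondrial RNA polymerase, averaged 58.9 ± 4.6 CPM at 30000 fibers and 35.7 ± 3.6 CPM in controls (log2 change 0.72 ± 0.09, adjusted p = 1.10e-06; 0.25 with the length trend removed). Its neighbours at the stalk base changed by 0.70 ± 0.10 (Mrpl10, adjusted p = 4.47e-06) and 0.43 ± 0.14 (Mrpl11, adjusted p = 0.00907). The Mrpl11 libraries of both groups overlapped, its call was lost with library totals (0.21, adjusted p = 0.18), and its change reversed to -0.34 (adjusted p = 0.0424) when all of its transcripts were summed. Mrps12, at the decoding centre, averaged 29.5 ± 3.6 CPM at 30000 fibers and 15.1 ± 2.4 CPM in controls (0.95 ± 0.13, adjusted p = 1.72e-06; -0.03 with the length trend removed). Mrpl58, a peptidyl-tRNA hydrolase that rescues stalled mitochondrial ribosomes, changed by 0.88 ± 0.12 (adjusted p = 2.36e-06; 0.53 with summed transcripts). Mrpl18, related to the bacterial protein that binds 5S ribosomal RNA, changed by 1.00 ± 0.09 (adjusted p = 1.73e-08), or 0.44 with the length trend removed; exons of Tcp1 overlap it on the opposite strand.

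Several members have human counterparts linked to respiratory chain deficiency; those given here are a set picked by role, not a full list. Mrps16 averaged 35.3 ± 3.2 CPM at 30000 fibers and 12.2 ± 1.6 CPM in controls (log2 change 1.53 ± 0.12, adjusted p = 9.41e-10), and Mrps14 averaged 40.4 ± 2.1 CPM at 30000 fibers and 14.5 ± 0.57 CPM in controls (1.47 ± 0.11, adjusted p = 4.53e-10). Mrps22, Mrps2, Mrps7 and Mrpl3 changed by 0.72 ± 0.12, 0.59 ± 0.11, 0.60 ± 0.13 and 0.53 ± 0.09, all called higher. The call of Mrps22 was lost with the length trend removed (0.14, adjusted p = 0.3215), as were those of Mrpl42, Mrpl27 and Mrps18b (0.07, 0.25 and 0.24, beside 1.45, 1.45 and 0.95 with it kept). The change of Mrpl3 was 0.23 with summed transcripts, and those of Mrps2 and Mrps7 were 0.37 and 0.38 with library totals. Mrpl44 and Mrps34 were not called. Mrpl44 was at 16.5, 14.1, 11.5 and 13.4 CPM at 30000 fibers, against 15.5, 14.5, 12.9 and 14.3 CPM in controls, a log2 difference of -0.06 ± 0.14 that was 0.03 without mouse 3 of the 30000-fiber group and -0.45 (adjusted p = 0.0064, called lower) with the length trend removed. Mrps34, whose representative shares exon sequence with Nme3 on the same strand, differed by 0.21 ± 0.14 (adjusted p = 0.190).

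**Figure D2:**
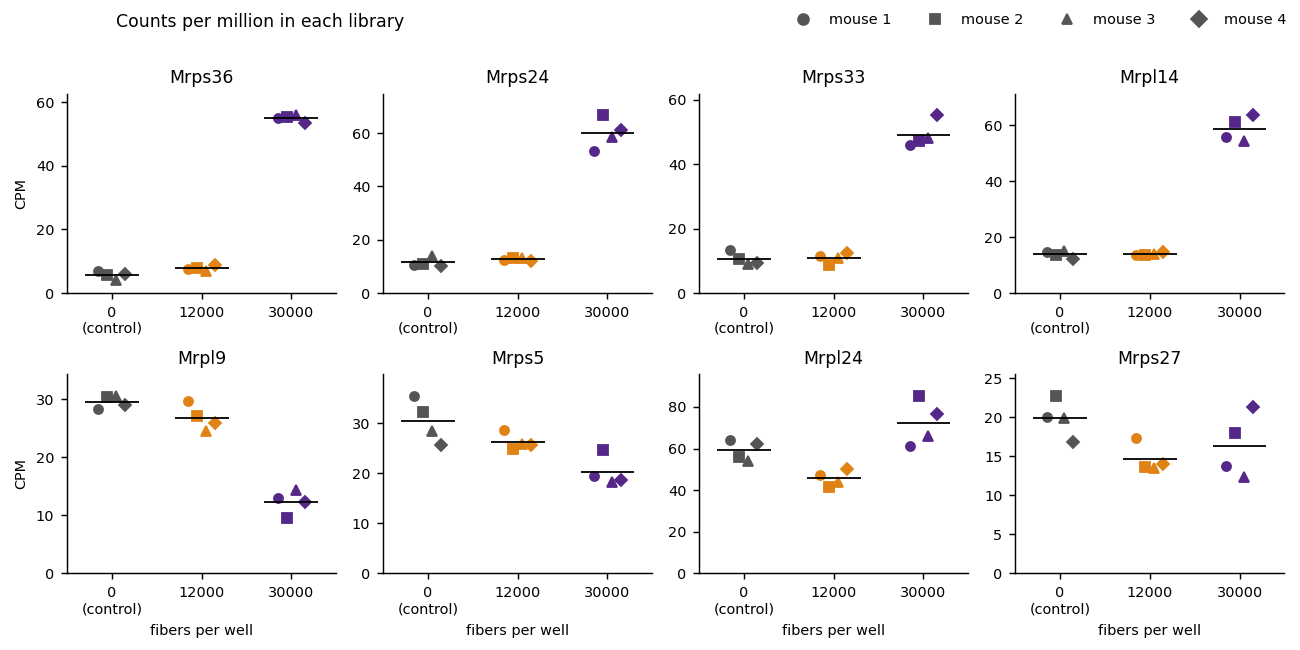
CPM in each of the 12 libraries for 8 members by fibers per well; symbols mark the mouse and lines the group mean. The upper row holds the 4 largest rises, and the lower row the members lower at 30000 fibers (Mrpl9, Mrps5) and members lower at 12000 fibers (Mrpl24, Mrps27); the change of Mrpl24 at 30000 fibers is -0.16 with the length trend removed.

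Mrpl9 and Mrps5 went the other way. Mrpl9, a large-subunit protein with a bacterial counterpart, was measured at 28.4, 30.4, 30.6 and 29.0 CPM in controls, 29.7, 27.2, 24.5 and 25.9 CPM at 12000 fibers and 12.9, 9.52, 14.4 and 12.4 CPM at 30000 fibers. All 30000-fiber libraries stood below all others, and the log2 change was -1.26 ± 0.12 (adjusted p = 2.36e-08), between -1.53 and -1.15 over the alternatives. Its exons overlap those of Oaz3 on the opposite strand. Mrps5, a small-subunit protein of the mRNA entry region, was at 35.5, 32.3, 28.5 and 25.6 CPM in controls, 28.6, 24.9, 25.8 and 25.7 CPM at 12000 fibers and 19.6, 24.7, 18.3 and 18.7 CPM at 30000 fibers. The 30000-fiber libraries lay below every control library (log2 change -0.59 ± 0.13, adjusted p = 0.000382; -0.81 to -0.46 over the alternatives).

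The other 7 members were not called at 30000 fibers: Mrps27, Mrps9, Mrpl44, Mrpl4, Mrpl19, Mrps34 and Mrps30, with log2 differences between -0.28 and 0.21. Mrps30 was called higher with the length trend removed (0.30, adjusted p = 0.0214) and was at -0.0094 with library totals (adjusted p = 0.951). Mrps9 averaged 32.5 ± 2.8 CPM at 30000 fibers and 34.2 ± 3.4 CPM in controls, groups that overlapped (-0.07 ± 0.11, adjusted p = 0.585). It was called lower with library totals (-0.30, adjusted p = 0.0258) and with the length trend removed (-0.46, adjusted p = 0.0021). Mrps27, a pentatricopeptide-repeat protein of the small subunit, was likewise called lower with library totals (-0.51, adjusted p = 0.0072), with summed transcripts (-0.40, adjusted p = 0.0306), with the length trend removed (-0.46, adjusted p = 0.0125) and without mouse 4 of the 30000-fiber group (-0.44, adjusted p = 0.0259). Mrpl36, a short large-subunit protein with a bacterial counterpart, was called higher at 0.44 ± 0.15 (adjusted p = 0.0179). Its call was lost with library totals (0.22, adjusted p = 0.2194), without control mouse 4 (adjusted p = 0.0591) or 30000-fiber mouse 3 (adjusted p = 0.0701), and its change was -0.48 (adjusted p = 0.0063) with the length trend removed and -0.01 with summed transcripts.

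At 12000 fibers few of the genes changed. Of the 75, 7 were higher and 3 lower than in controls, below the background of 18.7% of all genes called higher and 19.3% called lower. The median log2 change of the members was 0.07, beside -0.0026 over all genes, and the within-mouse medians were 0.04, 0.02, 0.05 and 0.12 for mice 1 to 4. All 12000-fiber libraries stood above all control libraries for 7 members and below them for 3, against 17.6% and 18.7% of all genes.

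The rises at 12000 fibers were small. Mrps36 was the largest at 0.45 ± 0.14 (adjusted p = 0.0191), with 7.79 ± 0.78 CPM at 12000 fibers and 5.67 ± 1.2 CPM in controls (SD, n = 4 each). Mrps18b, a small-subunit protein, was at 30.1, 28.0, 27.5 and 23.2 CPM at 12000 fibers and 18.6, 23.3, 21.4 and 22.8 CPM in controls. It was higher in 4 of 4 mice although the groups overlapped (0.34 ± 0.10, adjusted p = 0.0117). Mrpl35, Mrps31, Mrpl13, Mrps30 and Mrpl37 rose by 0.24 to 0.33. Mrps30, which despite its name sits in the large subunit, was at 21.3, 22.4, 22.0 and 22.1 CPM at 12000 fibers, above the 16.9, 20.3, 19.7 and 16.9 CPM of the controls (0.25 ± 0.09, adjusted p = 0.0422).

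The falls at 12000 fibers were those of Mrps27, Mrpl48 and Mrpl24. Mrpl24, a protein at the exit of the peptide tunnel, was at 47.3, 41.7, 43.8 and 50.4 CPM at 12000 fibers, below the 64.0, 55.8, 54.1 and 62.4 CPM of the controls in every library (-0.37 ± 0.09, adjusted p = 0.0034). Its exons overlap those of Rrnad1 on the opposite strand. Mrps27 was at 17.3, 13.6, 13.5 and 14.1 CPM at 12000 fibers and 20.0, 22.8, 19.9 and 16.8 CPM in controls (-0.43 ± 0.14, adjusted p = 0.0163); the gene 6430562O15Rik overlaps it on the opposite strand. Mrpl48, a mitochondria-specific large-subunit protein, averaged 7.30 ± 1.6 CPM at 12000 fibers and 9.70 ± 1.1 CPM in controls (-0.41 ± 0.16, adjusted p = 0.0477). Mrpl24 and Mrpl48 were called higher at 30000 fibers, by 0.29 ± 0.10 (adjusted p = 0.0126) and 0.57 ± 0.17 (adjusted p = 0.0059). The Mrpl24 call at 30000 fibers was lost without mouse 2 of that group (adjusted p = 0.0756) and with library totals (0.07, adjusted p = 0.536), and the change was -0.16 (adjusted p = 0.1445) with the length trend removed; the Mrpl48 call was lost with library totals (0.35, adjusted p = 0.0687) and with summed transcripts (0.16, adjusted p = 0.4325).

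Among the 10 calls at 12000 fibers, that of Mrpl24 held under all alternatives run (highest adjusted p 0.0158). The number called higher was 2 without 12000-fiber mouse 1, 3 without control mouse 4 or without 12000-fiber mouse 2, and 4 without control mouse 3, without 12000-fiber mouse 4 or by DESeq2. The number called lower was 1 without control mouse 2. Mrps18b was lost without 12000-fiber mouse 1 (adjusted p = 0.0572), Mrps27 without control mouse 2 (adjusted p = 0.0594), and Mrps36 without control mouse 3 (adjusted p = 0.0617) or 12000-fiber mouse 4 (adjusted p = 0.0566). The calls of Mrpl13, Mrpl37, Mrpl35, Mrps30, Mrps31 and Mrpl48 were lost under 4 or more single omissions each. Mrpl13 was lost without control mouse 3 or 4 or 12000-fiber mouse 1, 2 or 3 (adjusted p 0.0553 to 0.0749), and Mrpl37 without control mouse 3 or 4 or 12000-fiber mouse 1 or 4 (0.0595 to 0.1056). Mrpl35 was lost without control mouse 1, 2 or 4 or 12000-fiber mouse 1, 2 or 3 (0.0559 to 0.1048), and Mrps30 without control mouse 1 or 4 or any 12000-fiber mouse (0.0639 to 0.1275). Mrps31 was lost without control mouse 1, 3 or 4 or 12000-fiber mouse 1, 2 or 4 (0.0529 to 0.0973), and Mrpl48 without control mouse 1, 2 or 3, 12000-fiber mouse 1, 3 or 4, or 30000-fiber mouse 1, 3 or 4 (0.0532 to 0.1535).

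Between the fiber doses, 63 members were higher and 2 lower at 30000 than at 12000 fibers, against 28.3% of all genes called higher and 27.1% called lower, with a median log2 difference of 0.79. With the length trend removed, 38 were higher and 6 lower (median 0.29), beside 26.2% and 25.4% of all genes. The within-mouse medians were 0.68, 0.84, 0.83 and 0.88 for mice 1 to 4. The members lower at 30000 than at 12000 fibers were again Mrpl9 (-1.12 ± 0.12, adjusted p = 2.18e-07) and Mrps5 (-0.38 ± 0.13, adjusted p = 0.0166). The call of Mrps5 was lost with the length trend removed (-0.26, adjusted p = 0.1093), without 12000-fiber mouse 1 (adjusted p = 0.0508) and without 30000-fiber mouse 3 (adjusted p = 0.0654) or mouse 4 (adjusted p = 0.0531). This comparison shares libraries with both comparisons against control.

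The size of the change at 30000 fibers went with the length of the coding sequence. Over the 68 members with a protein-coding representative, the log2 change and the log2 coding length had a Pearson correlation of -0.675 (Spearman -0.706), a description across genes that share libraries and are not independent. Over all 11600 protein-coding representatives the same correlation was -0.279. The 23 members with coding lengths of 261 to 480 nt had a median log2 change of 1.47 and all were called higher. The 22 members of 498 to 756 nt had a median of 0.90, again all called higher, and of the 23 members of 762 to 1326 nt, 16 were higher and 2 lower with a median of 0.53. All genes within these length ranges had medians of 0.76 (743 genes), 0.34 (1311 genes) and 0.07 (3115 genes), in the same order as the members' medians. How many of all genes in each range were called was not counted. The members' calls by range therefore have only the shares over all lengths beside them, 32.2% higher and 33.4% lower. With the trend on transcript length removed, the members' correlation was -0.305. At 12000 fibers it was 0.041.

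**Figure D3:**
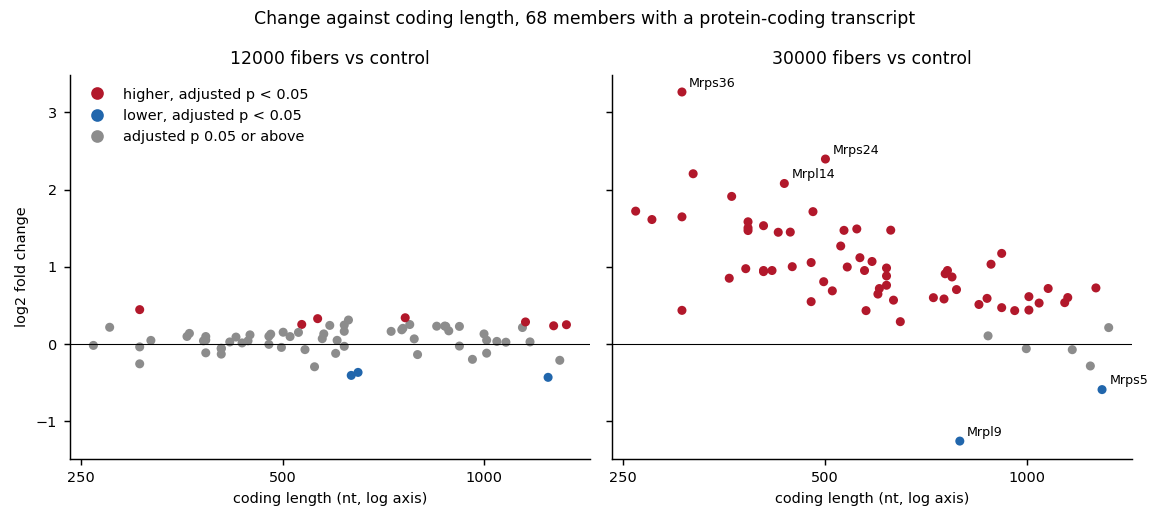
Log2 fold change over control against coding length (log axis) for the 68 members with a protein-coding representative, at 12000 fibers (left) and 30000 fibers (right); colours give the call. At 30000 fibers the points lie between -1.26 (Mrpl9, coding length 795 bases) and 3.26 (Mrps36), and longer coding sequences tend to go with smaller changes (Pearson -0.675, or -0.305 with the transcript length trend removed), and at 12000 fibers no such slope is seen (0.041).

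The members' transcripts did not move together. The 75 genes list 300 transcripts, 71 genes have more than 1 and the most is 11; in a separate edgeR fit of 67490 transcripts, 30.2% of all transcripts were called higher and 33.3% lower at 30000 fibers. CPM in this fit are scaled to the total over all transcripts, so levels are lower than those above, and its scaling puts the median representative of all genes at 0.31. Member transcripts that end within 100 bases of the representative's 3′ end were mostly higher, 41 of 49 against 3 lower (median 1.29), as were the representatives, 71 of 75 against 1 lower (median 1.25). Member transcripts that end more than 100 bases upstream were more often lower, 66 of 166 against 40 higher (median -0.36). The same classes over all genes had medians of 0.32 for 11321 transcripts with the same end and -0.38 for 39705 transcripts that end upstream, with the same signs as those of the members. Among all transcripts with the same end 51.4% were called higher and 19.6% lower, and among all representatives 50.08% and 17.55%. Of all transcripts that end upstream, 17.0% were higher and 42.9% lower. The members' 24.1% higher lay above that share, and their 39.8% lower lay near it. By annotation, 109 of 154 protein-coding member transcripts were higher and 19 lower (median 0.94), whereas 17 of 69 retained-intron transcripts were higher and 29 lower (median -0.12). Over all genes, 36.7% of protein-coding transcripts were higher and 29.4% lower (median 0.05), and 19.8% of retained-intron transcripts were higher and 39.9% lower (median -0.32), so that the members' shares of 24.6% and 42.0% for retained introns lay near those of all genes. At 12000 fibers the member medians lay between 0.06 and 0.11 in these 3 end classes. RNA integrity values are not used here, and the part of RNA quality in these differences was not tested.

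**Figure D4:**
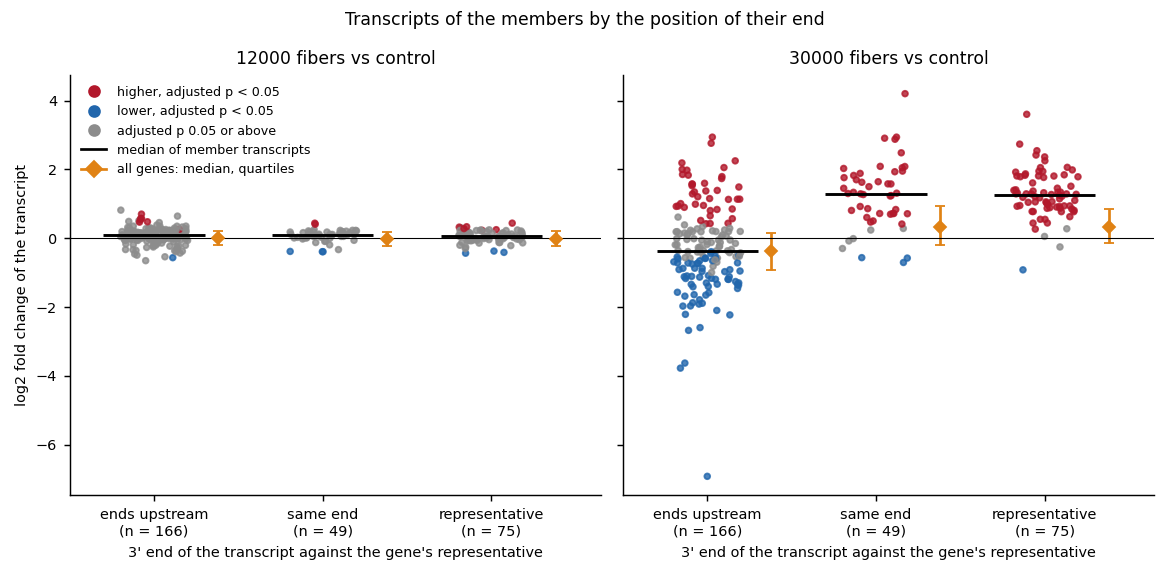
Log2 fold change of each member transcript at 12000 fibers (left) and 30000 fibers (right), grouped by whether it ends more than 100 bases upstream of the representative, ends within 100 bases of it, or is the representative; black lines are medians and orange diamonds the medians and quartiles over all genes. At 30000 fibers the upstream class is centred at -0.36 and the other classes at 1.29 and 1.25.

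In 31 of the 71 genes with several transcripts, some transcripts were called higher and others lower at 30000 fibers. That is 43.7% of them, beside 27.7% of the 11637 genes with several transcripts over the whole table. For Mrpl41, a mitochondria-specific large-subunit protein, the representative averaged 10.7 ± 1.1 CPM at 30000 fibers and 4.44 ± 0.67 CPM in controls (log2 change 1.28 ± 0.13). Its other transcript, also coding and ending 378 bases upstream, averaged 0.447 ± 0.305 CPM at 30000 fibers and 2.06 ± 0.288 CPM in controls (-2.23 ± 0.34, adjusted p = 2.1e-06 by edgeR). For Mrpl14 the representative changed by 2.42 ± 0.10, whereas a processed transcript with nearly the same end differed by -0.30 ± 0.16 (adjusted p = 0.113) and 1 that ends 317 bases upstream changed by -3.62 ± 0.82. Mrpl27, which reaches towards the peptidyl transferase centre, showed 1.79 ± 0.13 for the representative and -0.72 ± 0.24 for a processed transcript that ends 171 bases upstream. Mrpl18 showed 1.34 ± 0.10 for the representative and between -1.97 and -1.13 for the other 4. Mrps36 differed from these, since all 5 of its transcripts were higher, between 1.79 and 3.60, and Mrpl9 likewise, since all 3 of its transcripts were lower (-0.92, -1.76 and -1.79). For Mrps5 all 7 transcripts had negative values, although the representative was not called on this scale (-0.25 ± 0.12, adjusted p = 0.0757). Transcripts of 1 gene are no independent measurements: the 5 transcripts of Mrpl28 with the same end had mean counts of 157 to 169, and whether the same reads entered several of them was not tested.

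Genes around the mitochondrial ribosome did not all follow. The counts of the lists below stand beside all genes tested, of which 32.2% were called higher and 33.4% lower at 30000 fibers. Changes of single genes in these lists are given with TMM and the length trend kept. Their values with the trend removed or with library totals are not given here. At 12000 fibers these shares were 18.7% and 19.3%. Of 5 mitoribosomal proteins under other symbols, 3 were higher at 30000 fibers. Chchd1 was at 65.8, 70.9, 63.0 and 78.8 CPM at 30000 fibers and 20.6, 18.6, 19.1 and 19.1 CPM in controls (log2 change 1.85 ± 0.09, adjusted p = 6.1e-13), Aurkaip1 changed by 1.19 ± 0.10 and Ptcd3 by 0.58 ± 0.08. Dap3, the GTP-binding protein of the small subunit, differed by 0.01 ± 0.09 (adjusted p = 0.91 by edgeR). At 12000 fibers 1 of the 5, Chchd1, was higher.

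Translation factors were mixed at 30000 fibers, with 7 of 15 higher and 3 lower (median 0.25; 3 higher and 6 lower, median 0.03, with library totals, and median -0.06 with the length trend removed). Of all genes, 32.2% were higher and 33.4% lower. Slirp, an RNA-binding partner of Lrpprc that stabilises mitochondrial messages, was at 81.1, 97.4, 75.1 and 75.8 CPM at 30000 fibers and 11.2, 10.0, 8.99 and 8.80 CPM in controls, groups far apart (3.07 ± 0.12, adjusted p = 1.6e-14 by edgeR). Tufm, the elongation factor that brings aminoacyl-tRNA, changed by 1.20 ± 0.13. The recycling factor Gfm2, the back-translocation factor Guf1 and the initiation factor Mtif2 were lower, by -0.65 ± 0.10, -0.76 ± 0.15 and -0.40 ± 0.09. At 12000 fibers 3 were higher (Lrpprc 0.29, Gfm1 0.23 and Taco1 0.39).

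Mitochondrial tRNA synthetases and related enzymes were more often lower than higher: 9 of 20 were lower and 2 higher at 30000 fibers (median -0.31; 7 lower and 4 higher with the length trend removed). Among all genes 33.4% were lower and 32.2% higher at that dose. Lars2, Aars2 and Vars2, which charge leucine, alanine and valine tRNAs, changed by -0.95 ± 0.22, -0.78 ± 0.12 and -0.77 ± 0.10. Gatc and Yars2 were the enzymes that were higher (0.87 ± 0.14 and 0.69 ± 0.16).

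Of 26 mitoribosome assembly factors, 6 were higher and 5 lower at 30000 fibers (median 0.09; -0.13 with library totals, -0.18 with the length trend removed and -0.01 with summed transcripts). Both shares lay below the 32.2% higher and 33.4% lower of all genes. Malsu1, which escorts Mrpl14, was at 27.8, 39.2, 27.4 and 36.4 CPM at 30000 fibers and 12.8, 9.83, 9.38 and 9.11 CPM in controls (1.67 ± 0.14, adjusted p = 3.3e-09 by edgeR). Fastkd2 and Ddx28, both needed for the large subunit, changed by 0.89 ± 0.13 and 0.80 ± 0.17, and Rbfa, a small-subunit factor, by -0.60 ± 0.13. At 12000 fibers 2 were higher and 1 lower, below the 18.7% and 19.3% of all genes. Of 11 genes for transcription and replication of mitochondrial DNA, 3 were higher (Tfb2m 1.13, Ssbp1 0.65 and Tfam 0.48) and 2 lower (Polg -0.53 and Mterf1a -0.91) at 30000 fibers, with a median of 0.09 that was -0.13 with library totals and -0.05 with the length trend removed; at 12000 fibers edgeR called 0 of them, with 3 at an unadjusted p under 0.05.

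The RNAs that the ribosome is built on and translates were higher at 30000 fibers. mt-Rnr1 changed by 2.38 ± 0.24 and mt-Rnr2 by 1.75 ± 0.13. Of 22 transcripts of the mitochondrial genome 21 were higher and 1, mt-Nd6, which is encoded on the opposite strand from the other protein genes, was lower (-1.90 ± 0.17). With the length trend removed 13 were higher and 2 lower. Nuclear genes of the respiratory chain (72 higher and 2 lower of 75, median 1.85) and cytosolic ribosomal proteins (74 higher and 4 lower of 79, median 2.83) had medians above the members' 0.91; with the length trend removed the medians were 0.82 and 1.70, beside 0.41 for the members. At 12000 fibers 17 of 75 respiratory chain genes (22.7%) were higher, 16 of 79 cytosolic ribosomal proteins (20.3%) were higher and 1 lower, shares of higher calls near the 18.7% of all genes, and 1 transcript of the mitochondrial genome was lower. Cytosolic ribosomal protein genes have many processed pseudogenes, so that reads of these short transcripts may be split among copies.

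**Figure D5:**
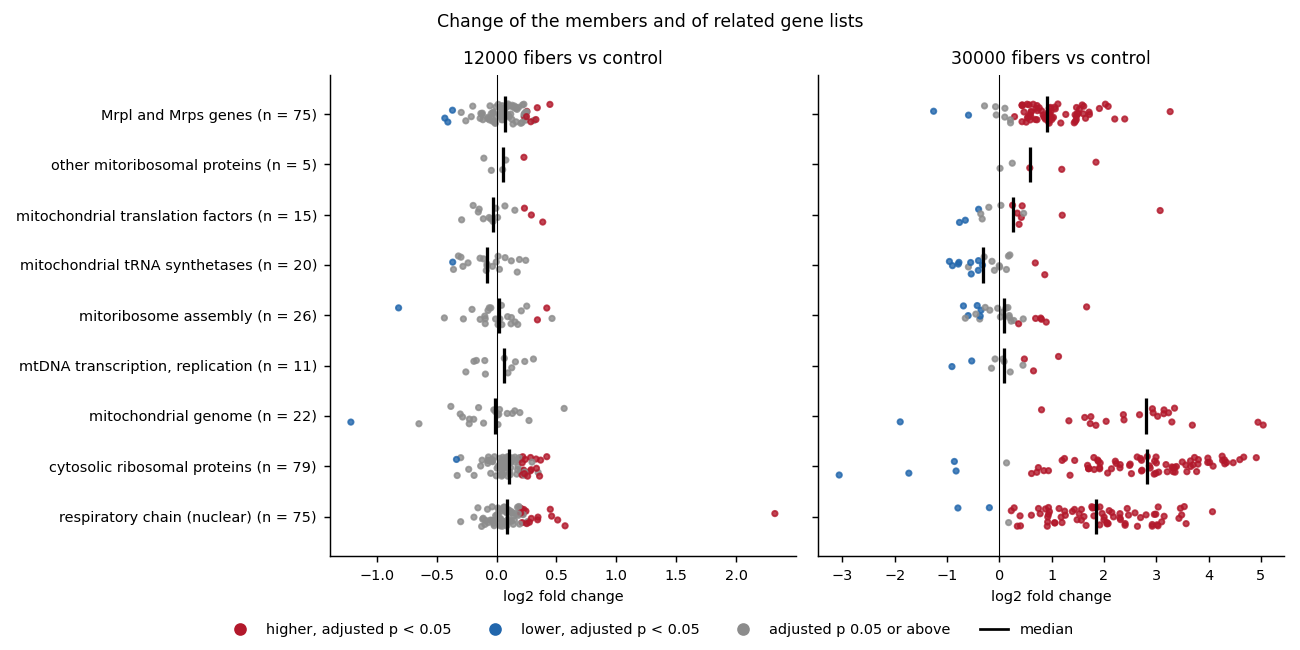
Log2 fold change over control of each gene tested in the members' list and in related lists, at 12000 fibers (left) and 30000 fibers (right, on a wider scale); black bars are medians and colours give the call. At 30000 fibers the medians run from -0.31 for tRNA synthetases through 0.91 for Mrpl and Mrps genes to 2.83 for cytosolic ribosomal proteins; the small positive medians of translation factors, assembly factors and mtDNA genes (0.25, 0.09 and 0.09) turn negative with the length trend removed, and those of assembly factors and mtDNA genes also with library totals.

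Start-site sequences were available for 66 of the 75 members, from RefSeq on GRCm38.p6. Within 250 bases before to 50 bases after the start, the ETS-type motif CCGGAAG (both strands) was present in 23 member promoters, or 34.8%, beside 18.0% of 10469 promoters of genes in the data. The YY1 motif was in 5 (7.58%, beside 2.15%), the NRF1 palindrome in 3 (4.55%, beside 2.02%) and the E-box CACGTG in 5 (7.58%, beside 10.0%). The median log2 change at 30000 fibers was 1.07 for the 23 members with the ETS motif and 0.76 for the 43 without. It was 0.95 with and 0.91 without the YY1 motif, 0.61 with and 0.94 without the NRF1 palindrome, and 1.00 with and 0.91 without the E-box, for which 5, 3 and 5 promoters are few. These are matches of letters and no measured binding. The 150 bases before the start are printed for the member with the largest rise (Mrps36, chr13:100744660-100744809, minus strand), the member with the highest level per kb of transcript (Mrpl52, chr14:54426759-54426908, plus strand) and the members that fell (Mrpl9, chr3:94443186-94443335, plus strand, and Mrps5, chr2:127587276-127587425, plus strand), all 5′ to 3′. Capitals mark the motifs above. The starts are those of RefSeq. For Mrps5 the RefSeq start lies 204 bases downstream of the start of the transcript tested (127587222). The Mrps5 stretch therefore lies within the span of that transcript and not before it.
Mrps36: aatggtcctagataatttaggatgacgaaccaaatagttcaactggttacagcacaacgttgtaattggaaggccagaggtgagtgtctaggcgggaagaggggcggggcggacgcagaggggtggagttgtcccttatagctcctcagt
Mrpl52: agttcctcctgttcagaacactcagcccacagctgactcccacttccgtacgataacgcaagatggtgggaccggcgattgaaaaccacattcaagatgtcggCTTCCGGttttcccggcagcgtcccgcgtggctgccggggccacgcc
Mrpl9: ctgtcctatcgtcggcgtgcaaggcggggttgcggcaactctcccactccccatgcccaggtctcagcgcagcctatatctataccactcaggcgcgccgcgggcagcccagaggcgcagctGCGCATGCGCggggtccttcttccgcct
Mrps5: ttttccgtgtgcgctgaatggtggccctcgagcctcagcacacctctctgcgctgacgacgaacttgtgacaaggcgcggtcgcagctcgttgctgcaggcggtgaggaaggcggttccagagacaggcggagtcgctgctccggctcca
The stretch before Mrpl52 holds an ETS match and that before Mrpl9 an NRF1 match. None of these letters occur in the stretches before the RefSeq starts of Mrps36 and Mrps5. The bases before the start of the tested Mrps5 transcript are not printed.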

How the data were processed

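Per the labels' protocols, total RNA (300 ng) of EpCAM+ and EpCAM- fractions was sequenced on a NextSeq 500 with stochastic barcodes; 24 libraries are labelled, of which the 12 epithelial ones were used. Cutadapt 1.12 and HISAT2 2.1.0 with mm10 were used, per the submitters' processing notes; how counts were made, with which strand setting and barcode handling, was not stated. The authors deposited raw counts per transcript. The table pairs 71081 transcripts with 14557 symbols; the fibroblast columns run to 107814 rows, 36733 of them without identifier, and were not used. The lowest transcript total over the epithelial libraries is 60, which limits what can be said of low transcripts. Annotation is GENCODE M21 (GRCm38), which holds 70529 of the transcripts.

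One transcript per gene was tested with edgeR 4.0.16 (R 4.3.3; quasi-likelihood, TMM, filter on low counts by group, all 12 libraries in 1 fit, adjusted p under 0.05 over 13759 genes); all 75 members passed the filter. On simulated data for the 30000-fiber comparison over 13381 genes, 65.7% of 1.5-fold, 92.5% of 2-fold and 100% of 3-fold changes were recovered. These changes were set in 67, 67 and 66 genes, drawn only from genes above a minimum control level, and 6 unchanged genes were called. The simulation held far fewer changed genes than the data and no length trend, so it does not give recovery for low genes or under such a trend. Genes were named by a rule: the largest changes per comparison, the smallest, the highest and lowest levels, opposite calls, diverging transcripts and a list of known roles. Members and lists were chosen with earlier results of these data known. Per the labels, cells came from 4 independent isolations of 4 mice used at every dose, so numbers pair the libraries; deviations of same-mouse libraries correlated at -0.019 to 0.156 over 12 pairs, and those of other pairs at -0.184 to 0.124. The fibroblast line is shared, so p-values measure the spread between these isolations. Alternatives were DESeq2 1.42.0, other scalings, no filter, summed transcripts, mouse as a block, removal of a transcript length trend, fits of 2 groups, omission of each library and, chosen after seeing the data, the highest protein-coding transcript. The replicate block (mouse) is reported with the sensitivity results.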

Additional observations from a re-analysis of the deposited data

Results flagged for a closer look

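Within groups of 4 libraries, 1 library stood apart from its 3 neighbours by Dixon's criterion (gap to the nearest neighbour over the group's range, 95% critical value) for 8 named members; over all 75 members and 3 groups this happened in 18 of 225 groups, where chance gives about 5%. Libraries above their group were Mrpl10 in control mouse 2 (31.52 CPM, the others at 27.6 to 28.0), Mrpl33 in 12000-fiber mouse 4 (30.14 CPM, the others at 27.3 to 27.6), Mrps12 in 30000-fiber mouse 1 (34.87 CPM, the others at 27.1 to 28.2) and Mrps27 in 12000-fiber mouse 1 (17.3 CPM, the others at 13.5 to 14.1). Libraries below their group were Mrpl47 in 12000-fiber mouse 2 (8.393 CPM, the others at 9.20 to 9.32), Mrps2 in 12000-fiber mouse 3 (27.47 CPM, the others at 28.6 to 28.8), Mrps28 in 30000-fiber mouse 4 (16.7 CPM, the others at 20.9 to 21.9) and Mrps31 in 12000-fiber mouse 3 (16.32 CPM, the others at 17.6 to 17.7).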

How the results depend on the processing

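Over 61 changes of named members and 21 alternatives, 1191 of 1281 values kept direction and call, 70 lost the call, 8 gained it and 12 reversed. At 30000 fibers against control, members higher numbered 58 with library totals, 60 with summed transcripts and 44 with the length trend removed. Members lower numbered 4, 5 and 8, and the median log2 change was 0.69, 0.68 and 0.41. Of all genes, 23.53%, 32.03% and 30.77% were higher and 46.25%, 32.09% and 32.08% lower in these settings. At 30000 against 12000 fibers, members higher numbered 59, 57 and 38 and members lower 5, 4 and 6, with medians of 0.58, 0.63 and 0.29. Of all genes, 20.1%, 28.2% and 26.17% were higher and 41.06%, 26.39% and 25.38% lower. DESeq2 called 4 members higher at 12000 fibers, beside 18.14% of all genes. Without the length trend, changes at 30000 fibers reversed for Mrpl24 (-0.16), Mrpl36 (-0.48), Mrpl41 (-0.22), Mrpl52 (-0.093, and -0.14 against 12000 fibers), Mrps12 (-0.029) and Mrps21 (-0.077); with summed transcripts for Mrpl11 (-0.34) and Mrpl36 (-0.01); with library totals for the uncalled Mrps30 (-0.0094) and Mrps34 (-0.011); and without 30000-fiber mouse 3 for Mrpl44 (0.028, and -0.146 to 0.028 over all single omissions). The cause of each was not tested. Leaving out 1 library gave, at 12000 fibers, 4441 to 5414 genes called, 2 to 9 members higher, 1 to 4 lower and a median of 0.04 to 0.11; at 30000 fibers, 8605 to 9059 genes called, 65 to 66 higher, 2 to 3 lower and a median of 0.86 to 0.93; between the doses, 7067 to 7901 genes called, 62 to 65 higher, 1 to 2 lower and a median of 0.76 to 0.84. With the mouse as replicate block, members higher and lower numbered 9 and 3 at 12000 fibers, 66 and 2 at 30000 fibers and 65 and 2 between the doses. Of all genes, 19.84%, 32.56% and 28.68% were higher and 20.28%, 33.88% and 27.79% lower with this block. The block changed no call among the 61 changes of named members, a set that does not hold all of their comparisons. Depth at 30000 fibers limits low transcripts: member counts there were 21 to 382 per library, against 18 to 617 in controls.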
